A study of Mus musculus with 8 samples.

Results

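The miR-29 family was followed in MIN6B1 cells, a mouse insulinoma line used as a model of pancreatic beta cells (the sample titles shorten the name to MIN6). Its members were all distinct read sequences annotated to a mature arm of miR-29a, miR-29b or miR-29c, which gave 12 of the 11568 distinct sequences in the deposited listing and 12 of its 652 mature miRNA sequences. Each mature miRNA, mmu-miR-29a-3p, mmu-miR-29b-3p and mmu-miR-29c-3p (written here without the mouse prefix), was represented by 4 sequences that share a 5′ end and differ in where the 3′ end stops. No sequence of a 5p arm was listed. Every listed sequence has 2 counts or more in both libraries of oxidized methyltransferase RNA, and 10 or more over the pair, so rarer miR-29 sequences are not analysed here.

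The cells had been transfected with a control plasmid (CTRL) or with a plasmid expressing the HENMT1ΔC-T6B methyltransferase, by lipofection for 4 h followed by 24 to 72 h of culture, and RNA of each was sequenced either oxidized or non-oxidized. The 4 groups were CTRL non-oxidized, CTRL oxidized, methyltransferase non-oxidized and methyltransferase oxidized, with 2 libraries each, built from 5 ng of total RNA with the QIAseq miRNA kit. Everything comes from 1 cell line, the labels do not say which share of cells took up a plasmid, and nothing in them says that the 2 libraries of a group came from separate cultures, so p-values measure only the spread between libraries, which may be technical.

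The design asks which small RNAs become resistant to oxidation when the methyltransferase is present. HENMT1-type enzymes place a methyl group on the 2′ oxygen of the last nucleotide of small RNAs, and the T6B peptide binds Argonaute proteins, the carriers of miRNAs. Periodate oxidation destroys the free 3′ end of unmethylated RNA so that it no longer accepts an adapter, and a methylated end is spared. The miR-29 family is among the miRNAs best known in beta cells, where it represses Slc16a1 (a monocarboxylate transporter that beta cells keep silent), Mcl1 (a survival factor) and Onecut2 (a transcription factor that represses granuphilin, itself an inhibitor of granule exocytosis); in other tissues it is known for repressing collagens and DNA methyltransferases.

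The mature sequences show how close the 3 members are, and therefore what a read must carry to be assigned to one of them. They are given 5′ to 3′ from RefSeq (GRCm38.p6), with the seed, bases 2 to 8, in capitals.
miR-29a-3p: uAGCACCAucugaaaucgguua
miR-29b-3p: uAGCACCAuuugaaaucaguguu
miR-29c-3p: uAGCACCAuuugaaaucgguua
All 3 share 1 seed. Counting positions from 1 at the 5′ end, miR-29a-3p and miR-29c-3p differ by the single substitution C10U (the first-named miRNA's base is given first). miR-29a-3p and miR-29b-3p differ over their common length by C10U, G18A, U21G and A22U, and miR-29b-3p is 1 base longer. miR-29b-3p and miR-29c-3p differ by A18G, G21U and U22A.

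The 12 sequences counted in the libraries form 3 ladders at the 3′ end, the end on which methylation and oxidation act. They are printed as in the listing, in DNA letters, with the last base in capitals.
miR-29a-3p 19 nt: tagcaccatctgaaatcgG
miR-29a-3p 20 nt: tagcaccatctgaaatcggT
miR-29a-3p 21 nt: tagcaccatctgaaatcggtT
miR-29a-3p 22 nt: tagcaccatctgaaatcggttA
miR-29b-3p 20 nt: tagcaccatttgaaatcagT
miR-29b-3p 21 nt: tagcaccatttgaaatcagtG
miR-29b-3p 22 nt: tagcaccatttgaaatcagtgT
miR-29b-3p 23 nt: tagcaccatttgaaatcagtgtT
miR-29c-3p 19 nt: tagcaccatttgaaatcgG
miR-29c-3p 20 nt: tagcaccatttgaaatcggT
miR-29c-3p 21 nt: tagcaccatttgaaatcggtT
miR-29c-3p 22 nt: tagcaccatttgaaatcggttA
The longest sequence of each ladder equals the RefSeq mature sequence. The most counted sequence in non-oxidized control libraries, called the main sequence here, was the 21-nt form of miR-29a-3p and miR-29c-3p, 1 base short of the RefSeq entry, and the full 23-nt form of miR-29b-3p.

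The family comes from 2 gene pairs. On chromosome 6, on the minus strand, Mir29a (31062660 to 31062747) and Mir29b-1 (31063023 to 31063093) lie 275 bases apart, with miR-29a-3p at chr6:31062673-31062694 and miR-29b-3p at chr6:31063025-31063047. On chromosome 1, on the plus strand, Mir29b-2 (195037040 to 195037120) and Mir29c (195037547 to 195037634) lie 426 bases apart, with miR-29b-3p at chr1:195037091-195037113 and miR-29c-3p at chr1:195037600-195037621. In GENCODE M21, both hairpins of chromosome 1 lie in an exon of the non-coding transcript A330023F24Rik on the same strand and overlap an exon of Cd46 on the opposite strand, Mir29b-1 overlaps by its edge an exon of the lincRNA Gm27019, and Mir29a overlaps no other gene. Since both miR-29b genes give the same mature RNA, the counts of miR-29b-3p cannot be divided between them.

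Listed counts per library were 3654639 to 6641250 in non-oxidized libraries, 2446036 to 3100971 in methyltransferase oxidized libraries, and only 438363 and 295094 in CTRL oxidized libraries, of which 13772 and 10115 were mature miRNA counts. A floor of 3 counts, used for sequences at 0 in both CTRL oxidized libraries, is therefore 0.000684% and 0.00102% of the counts of these 2 libraries. The beta-cell miRNAs miR-375-3p (419998 and 408024 counts), miR-7a-5p (257381 and 370675) and miR-184-3p (299 and 247) were all present in CTRL non-oxidized libraries. Of 15 miRNAs that mark other cell types, only 3 were listed, with 515 and 232 counts of miR-124-3p (neurons), 404 and 164 of miR-122-5p (liver) and 248 and 311 of miR-126a-3p (endothelium) in CTRL non-oxidized RNA, and none of the markers of muscle (3), blood (5) or fibroblasts and smooth muscle (4) were listed.

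In non-oxidized control RNA, where no chemistry selects on the 3′ end, miR-29a-3p was the most counted member. Its 4 sequences summed to 12378 and 16089 counts, those of miR-29b-3p to 4172 and 6167, and those of miR-29c-3p to 4243 and 6215. Within a library, miR-29a-3p made up 59.5% and 56.5% of the family, and miR-29b-3p (20.1% and 21.7%) and miR-29c-3p (20.4% and 21.8%) were nearly level, differing by less than the spread between the 2 libraries. These are counts of cloned reads, and the cloning efficiency of each sequence was not measured. The 4 miR-29a-3p sequences had 180 and 285 counts at 19 nt, 1584 and 1858 at 20 nt, 7906 and 10384 at 21 nt, and 2708 and 3562 at 22 nt. miR-29c-3p had the same order of lengths, with 121 and 213, 538 and 824, 2324 and 3452, and 1260 and 1726 counts from 19 to 22 nt. In contrast to both, miR-29b-3p was mostly full length, with 3453 and 5088 counts at 23 nt against 476 and 691 at 22 nt, and between 53 and 309 counts in its 2 shortest sequences.

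**Figure D1:**
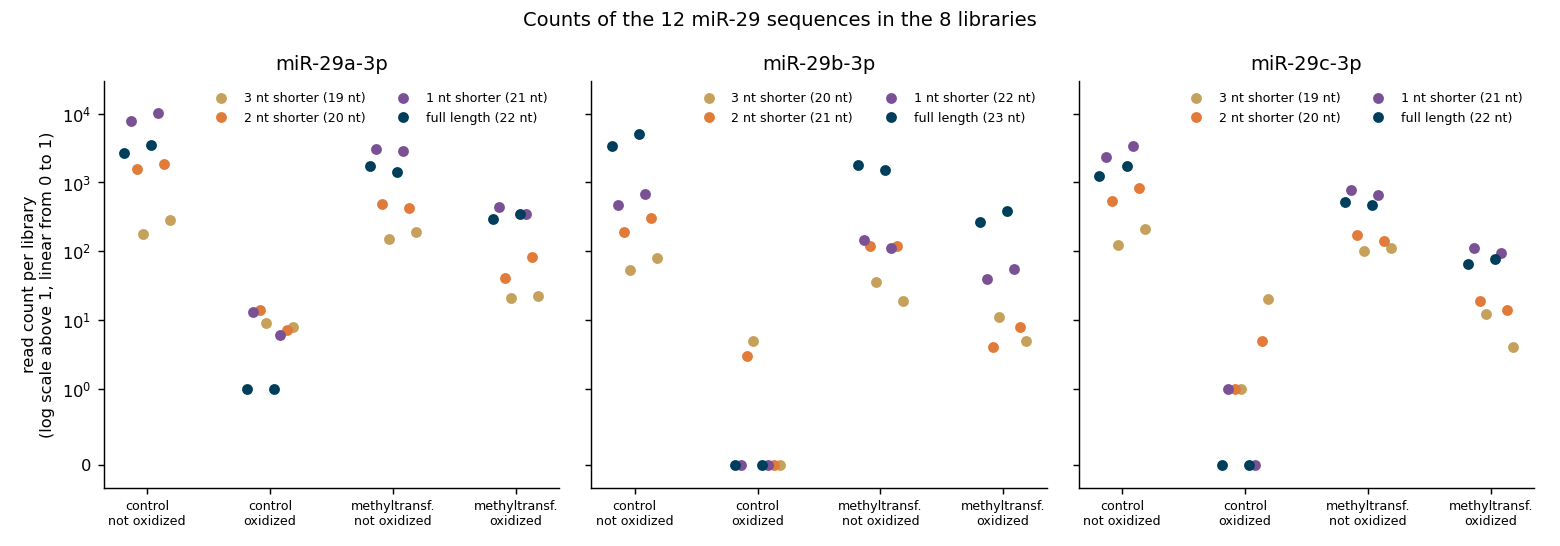
Read counts of each of the 12 miR-29 sequences in each of the 8 libraries, by group (x axis), on an axis that is logarithmic above 1 and linear from 0 to 1; each point is 1 library and colours give the number of bases missing from the 3′ end. In CTRL oxidized libraries the longest sequences lie at 0 or 1 count while the shorter ones keep up to 20 counts, and in methyltransferase oxidized libraries the longer sequences lie at 39 to 433 counts.

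Without oxidation, no miR-29 sequence passed the test between methyltransferase and CTRL RNA, although every member was lower with the methyltransferase. The main miR-29a-3p sequence had 3029 and 2882 counts with the methyltransferase against 7906 and 10384 with CTRL. The main miR-29b-3p sequence had 1817 and 1529 against 3453 and 5088, and the main miR-29c-3p sequence 783 and 668 against 2324 and 3452. The other miR-29c-3p sequences with methyltransferase had 170 and 142 counts at 20 nt and 528 and 475 at 22 nt, and those of miR-29a-3p had 149 and 193, 492 and 422, and 1763 and 1419 at 19, 20 and 22 nt. After scaling the libraries by trimmed means (TMM), the groups did not overlap for 12 of 12 sequences, all lower, beside 21.3% of the 9851 tested sequences lower in the same way. The edgeR quasi-likelihood test, with Benjamini-Hochberg adjustment over the 9851 sequences, called 0 of 12 at an adjusted p under 0.05 and 0.0% of all sequences. The smallest adjusted p of a member was 0.269.

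At an unadjusted p under 0.05 the same test held 8 of the 12 members, all lower, beside 4.73% of all sequences that were lower. Of the 595 other mature miRNA sequences, 131 were lower at that threshold, and 499 had a negative log2 fold change. The DESeq2 Wald test called 6 members lower, beside 0.735% of the 11568 sequences called lower, and 123 called in either direction. The median log2 fold change of the members was -1.47, beside -0.62 over the 595 other mature miRNA sequences and 0.05 over all sequences tested. Among the main sequences of 101 other miRNAs with a mean of 100 counts or more, only 2 had a lower value than miR-29c-3p (log2 fold change -2.001 ± 0.41 SE), 12 were below miR-29a-3p (-1.64 ± 0.36 SE) and 22 below miR-29b-3p (-1.36 ± 0.42 SE). Of the listed markers of other cell types, miR-122-5p (liver) moved the other way, with 791 and 553 counts in methyltransferase against 404 and 164 in CTRL non-oxidized RNA. The others did not, with 147 and 85 against 515 and 232 for miR-124-3p (neurons) and 155 and 290 against 248 and 311 for miR-126a-3p (endothelium). The part of cell make-up in the result was not tested. In bulk RNA, fewer cells that hold miR-29 and less miR-29 per cell cannot be told apart. The direction held for all 12 sequences under TMM, and turned for miR-29a-3p 19 nt when libraries were scaled by total counts (log2 fold change 0.07) and for the 19-nt sequences of miR-29a-3p (0.25) and miR-29c-3p (0.03) when miRNA sequences were fitted alone.

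Oxidation of control RNA, from cells without the methyltransferase plasmid, removed nearly all miR-29 reads. The family fell from 20793 and 28471 counts to 48 and 47. The main miR-29b-3p sequence and the 22-nt sequences of miR-29b-3p and miR-29c-3p were at 0 counts in both CTRL oxidized libraries. The main miR-29c-3p sequence had 1 and 0 counts, and miR-29a-3p 22 nt had 1 and 1. The main miR-29a-3p sequence kept 13 and 6 counts, and its shorter forms of 20 nt (14 and 7) and 19 nt (9 and 8) kept about as many, although they had been far rarer before oxidation. All 12 sequences were called lower (edgeR, adjusted p 2.6e-07 to 0.0021), beside 46.4% of all sequences tested, and their libraries did not overlap in 12 of 12, beside 50.6%. With at least 10 counts required in each group compared, 4 of the 4 members left were called lower, beside 17.9% of 3035 sequences. With libraries scaled by total counts, 9 of the 12 were called lower, beside 2331 of 9851 sequences. In a fit of miRNA sequences alone, 8 were called lower and 1 higher, beside 411 lower and 91 higher of 865 sequences. The 1 called higher was miR-29a-3p 19 nt (adjusted p = 0.0385 in edgeR).

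The fall was steeper the more complete the 3′ end. Within miR-29a-3p the log2 fold change on oxidation was -5.11 ± 0.52 (SE) at 19 nt, -7.75 ± 0.62 at 20 nt, -10.30 ± 0.53 at 21 nt and -11.80 ± 0.65 at 22 nt. In TMM-scaled counts that is a 34.8-fold fall of the 19-nt sequence and a 1303-fold fall of the main one. For the sequences at 0, the fall was at least 1795-fold (miR-29b-3p 23 nt), at least 245-fold (miR-29b-3p 22 nt) and at least 628-fold (miR-29c-3p 22 nt), taking the floor of 3 counts in each library. On the scale of total listed counts, the same lower bounds were 82.7-fold, 11.3-fold and 29.03-fold. The falls of miR-29a-3p at 19 nt and 21 nt were 1.60-fold and 60.6-fold on this scale. On that scale miR-29c-3p 19 nt turned in direction (log2 fold change 0.28), and in a fit of miRNA sequences alone the shortest sequences of miR-29a-3p (1.15), miR-29b-3p (1.18) and miR-29c-3p (1.99) turned as well. The median over other mature miRNA sequences changed with length in the same direction, from -2.21 at 18 nt (21 sequences) to -9.96 at 22 nt (168 sequences).

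With the methyltransferase, oxidized RNA held far more miR-29 than oxidized control RNA, and the gain was largest for the sequences with complete 3′ ends. The family had 1314 and 1441 counts against 48 and 47. The main sequence of miR-29a-3p had 433 and 347 counts against 13 and 6, which is 5.47 ± 0.45 (SE) as a log2 fold change (adjusted p = 2.6e-06 in edgeR). The main sequence of miR-29b-3p had 264 and 388 counts against 0 and 0, at least 117-fold higher. The main sequence of miR-29c-3p had 112 and 95 counts against 1 and 0, a ratio of pooled TMM-scaled counts of 222, with a 95% exact counting interval of 39.5 to 8824. In all 3 cases the lowest methyltransferase library lay far above the highest control library.

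Over the whole family, 9 of 12 sequences rose and 0 fell, beside 42.3% of all tested sequences called higher and 3.92% called lower, and beside a rise in 509 of the 595 other mature miRNA sequences. Because the listing requires counts in methyltransferase oxidized RNA, the high group here, 8 of the 12 members had under 10 counts over the CTRL oxidized pair and were listed through that group, so these counts are a description. With at least 10 counts required in each group compared, 4 members were left (miR-29a-3p at 19, 20 and 21 nt and miR-29c-3p 19 nt), of which 2 rose, miR-29a-3p 20 nt (3.15) and 21 nt (5.98), beside 3.51% of 5276 sequences higher and 0.0% lower. The libraries did not overlap for 11 of 12 sequences, all higher, beside 47.5%. The members' median log2 fold change was 4.08, beside 0.82 over all sequences and 6.50 over other mature miRNAs. The 22-nt sequences were all among those that rose. miR-29a-3p 22 nt had 294 and 344 counts against 1 and 1, a ratio of 343 (95% exact counting interval 94.5 to 2835). miR-29b-3p 22 nt, with 39 and 55 counts against 0 and 0, was at least 16.8-fold higher, and miR-29c-3p 22 nt, with 65 and 78 against 0 and 0, at least 25.3-fold higher.

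The shorter sequences gained little or did not pass the test. miR-29a-3p 20 nt rose from 14 and 7 counts to 40 and 81 (2.70 ± 0.53 as a log2 fold change with its SE, adjusted p = 0.0012 in edgeR). miR-29a-3p 19 nt had 21 and 22 counts against 9 and 8 (1.42 ± 0.50, adjusted p = 0.0361), and this call was lost in 6 of the 8 fits with 1 library left out. It passed only without methyltransferase oxidized replicate 1 or 2, and the lowest value was 1.23 without CTRL oxidized replicate 1. miR-29c-3p 20 nt had 19 and 14 counts against 1 and 5 (2.43 ± 0.70, adjusted p = 0.0123), and without CTRL oxidized replicate 1 the value was 1.495 and no longer passed. miR-29b-3p 20 nt (11 and 5 against 5 and 0) and 21 nt (4 and 8 against 3 and 0) did not pass, with adjusted p of 0.152 and 0.0854. Without CTRL oxidized replicate 1, which held all their control counts, both passed, with log2 fold changes of 5.80 and 5.45. miR-29c-3p 19 nt had 12 and 4 counts against 1 and 20, a log2 fold change of -0.50 ± 0.98 that turned to 3.07 without CTRL oxidized replicate 2.

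How far the sequences gained depends on the scaling, and for the shorter ones so does the direction. Mature miRNAs were only 13772 of 438363 and 10115 of 295094 listed counts in the CTRL oxidized libraries. With total counts in place of TMM, 6 members were called higher (beside 27.8% of all sequences) and 2 lower (beside 48.7%), and the log2 fold changes of the shorter sequences turned negative, for example -1.58 for miR-29a-3p 19 nt and -0.29 for miR-29a-3p 20 nt, while all sequences of 21 nt or more in miR-29a-3p and miR-29c-3p and of 22 nt or more in miR-29b-3p stayed higher. In a fit of miRNA sequences alone, 6 members were called higher (beside 39.2% of the 865 sequences in that fit) and 3 lower (beside 11.3%). On total counts the lower bounds above became 14.3-fold for miR-29b-3p 23 nt, 2.06-fold for miR-29b-3p 22 nt and 3.11-fold for miR-29c-3p 22 nt. The ratios of 222 (miR-29c-3p 21 nt) and 343 (miR-29a-3p 22 nt) became 27.4 and 42.2. For the main miR-29a-3p sequence the log2 fold change was 2.47 with total counts and 1.27 with miRNA sequences alone, against 5.47 with TMM. For that of miR-29c-3p it was 4.76 and 3.59, against 7.45. That of miR-29b-3p, at 0 in CTRL oxidized RNA, was 11.68 and 12.15, against 11.29, but these fitted values depend on the prior count. Its lower bound did shrink, from 117-fold with TMM to 14.3-fold with total counts. Scaling by total counts moved the median over all sequences in this comparison by -2.99 on the log2 scale. The share of called sequences in the whole table that were higher was 91.5% with TMM, 36.4% with total counts, 67.9% with upper quartiles and 77.6% in the fit of miRNA sequences alone. For oxidation of control RNA the same 4 shares were 28.4%, 69.1%, 49.7% and 18.1%, for oxidation of methyltransferase RNA 13.7%, 61.5%, 55.2% and 44.7%, and for the interaction described below 93.0%, 32.6%, 76.2% and 77.3%.

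**Figure D2:**
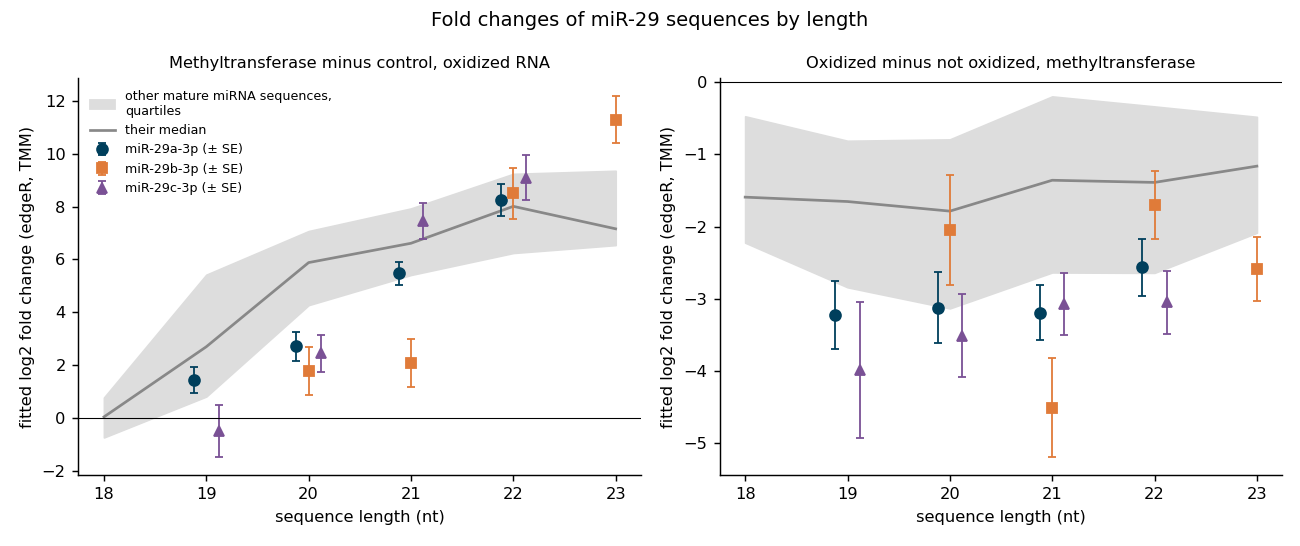
Log2 fold change of each miR-29 sequence (points, ± SE of the edgeR fit with TMM) by sequence length, for methyltransferase against CTRL in oxidized RNA (left) and for oxidized against non-oxidized RNA with the methyltransferase (right); the grey line and band are the median and the range between quartiles of the other mature miRNA sequences of that length. On the left the members rise from -0.50 at 19 nt to 11.29 at 23 nt, as the grey median does from 0.03 at 18 nt to 8.01 at 22 nt. On the right the members lie between -4.50 and -1.70, ordered by length for miR-29c-3p only. Fitted values of sequences at 0 in CTRL oxidized RNA depend on the prior count.

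The same slope with length was present in miRNAs outside the family. In oxidized RNA, methyltransferase against CTRL, the median log2 fold change of other mature miRNA sequences was 0.03 at 18 nt, 2.69 at 19 nt (52 sequences), 5.88 at 20 nt (92), 6.61 at 21 nt (156), 8.01 at 22 nt and 7.16 at 23 nt (59). At 20 nt, the miR-29a-3p and miR-29c-3p sequences (2.70 and 2.43) lay below the lower quartile of other miRNA sequences of that length (4.27), as did miR-29b-3p 21 nt (2.08, quartile 5.41). At 22 nt the sequences of all 3 miRNAs (8.25 to 9.09) lay between the quartiles (6.24 and 9.24). Among main sequences, 9 of 101 other miRNAs gained less than miR-29a-3p, 24 less than miR-29c-3p, and 91 less than miR-29b-3p, whose fitted value of 11.29 rests on 0 counts in the control and depends on the prior count.

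The methyltransferase did not keep miR-29 at its non-oxidized level. After oxidation of methyltransferase RNA, the main miR-29a-3p sequence fell from 3029 and 2882 counts to 433 and 347, which is -3.19 ± 0.38 (SE) as a log2 fold change (adjusted p = 1.8e-04 in edgeR). The main miR-29b-3p sequence fell from 1817 and 1529 to 264 and 388 (-2.59 ± 0.44, adjusted p = 0.0029). The main miR-29c-3p sequence fell from 783 and 668 to 112 and 95 (-3.08 ± 0.43, adjusted p = 5.4e-04). In TMM-scaled counts, 11.0%, 16.7% and 11.8% of the non-oxidized level was left, and on the scale of total listed counts 19.8%, 30.1% and 21.4%.

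In all, 11 of 12 members were called lower on oxidation with the methyltransferase, beside 11.2% of all tested sequences and 240 of the 595 other mature miRNA sequences. All 12 had non-overlapping libraries, lower, beside 28.9%. The median log2 fold change was -3.10 for the members, -1.33 for other mature miRNA sequences and 0.09 for all sequences. The sequence that did not pass was miR-29b-3p 20 nt (35 and 19 counts to 11 and 5, -2.05 ± 0.76, adjusted p = 0.109), which passed without CTRL oxidized replicate 2 (-2.08). The steepest value was that of miR-29b-3p 21 nt (118 and 119 counts to 4 and 8, -4.50 ± 0.68), and the shallowest called value that of miR-29b-3p 22 nt (147 and 113 to 39 and 55, -1.70 ± 0.47, adjusted p = 0.039), a call that was lost without any 1 of the 6 libraries other than CTRL oxidized (-1.9996 to -1.37). The call of miR-29c-3p 19 nt (-3.99 ± 0.94) was lost without either methyltransferase oxidized library (-4.79 and -3.36). All called sequences other than these 3 had log2 fold changes between -3.51 and -2.56. Within miR-29a-3p the values at 19, 20, 21 and 22 nt were -3.22, -3.12, -3.19 and -2.56, without the steep order of control RNA. Those of miR-29b-3p did not order by length either (-2.05, -4.50, -1.70 and -2.59 from 20 to 23 nt). Those of miR-29c-3p did, at -3.99, -3.51, -3.08 and -3.05 from 19 to 22 nt, over a narrower range than in control RNA.

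The members' direction on oxidation with the methyltransferase was negative for all 12 sequences in every alternative that was run, total counts and miRNA sequences alone included. With total counts 9 of 12 were called lower, beside 6.4% of all sequences, and the main sequences had log2 fold changes of -2.33 (miR-29a-3p), -1.73 (miR-29b-3p) and -2.22 (miR-29c-3p). In a fit of miRNA sequences alone, where the reference is other miRNAs, 10 of 12 were called lower, beside 22.4% of the 865 sequences in that fit, and these values were -1.80, -1.19 and -1.68. Among the main sequences of 101 other miRNAs the median was -2.28, with quartiles of -3.20 and -1.08 and a range from -8.04 to 0.59. Of these 101, 26 fell more than miR-29a-3p, 28 more than miR-29c-3p and 43 more than miR-29b-3p. The main miR-29 sequences thus lay between the quartiles of the other main sequences. In the authors' deposited table, the main miR-29a-3p sequence was 8.97-fold lower after oxidation of methyltransferase RNA and 52.7-fold higher in methyltransferase than in control oxidized RNA, and 11 and 9 of the 12 sequences had an adjusted p under 0.05 in those comparisons.

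**Figure D3:**
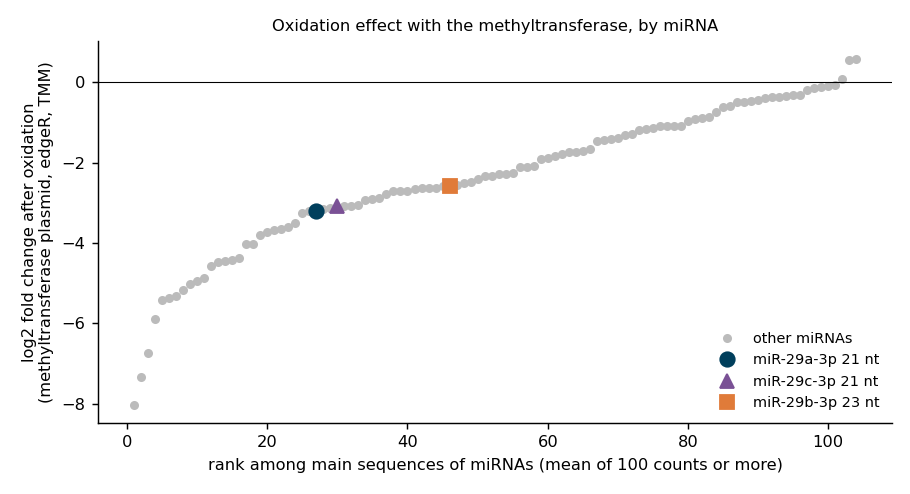
Fitted log2 fold change on oxidation of methyltransferase RNA (y axis) of the main sequence of each miRNA with a mean of 100 counts or more, ordered from lowest to highest (x axis); grey points are 101 other miRNAs and coloured symbols the 3 miR-29 members. The members sit at -3.19, -3.08 and -2.59, between the lower quartile of -3.20 and the median of -2.28 of the other miRNAs.

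The interaction of plasmid and oxidation compares the loss on oxidation with and without the methyltransferase. It was positive for all 12 sequences and was called for 10 of 12, all higher, beside 39.6% of all tested sequences and 510 of the 595 other mature miRNA sequences. The listing requires counts in methyltransferase oxidized RNA, a group that raises this value, so these counts are a description. With 10 counts required in each group, 2 of the 4 members left were called, beside 6.1% of 2785 sequences. The log2 value was 7.11 ± 0.57 (SE) for the main miR-29a-3p sequence and 1.89 ± 0.66 for miR-29a-3p 19 nt. The 2 sequences that did not pass were miR-29b-3p 20 nt (3.05 ± 1.15, edgeR adjusted p = 0.0513) and miR-29c-3p 19 nt (0.18 ± 1.30, adjusted p = 0.943). Leaving out 1 library, the call of miR-29a-3p 19 nt was lost without CTRL non-oxidized replicate 2 (1.54), either CTRL oxidized library (1.72 and 2.05) or either methyltransferase non-oxidized library (1.79 and 2.01). That of miR-29b-3p 21 nt was lost without replicate 2 of any 1 of the 4 groups (2.40 to 3.11). miR-29b-3p 20 nt passed without CTRL oxidized replicate 1 (7.10), methyltransferase non-oxidized replicate 1 (3.65) or methyltransferase oxidized replicate 2 (3.75), and miR-29c-3p 19 nt passed without CTRL oxidized replicate 2 (3.78). In TMM-scaled counts, for sequences at 0 in CTRL oxidized RNA, the oxidation loss was at least 299-fold smaller with the methyltransferase for miR-29b-3p 23 nt, 75.5-fold for miR-29b-3p 22 nt and 75.9-fold for miR-29c-3p 22 nt. On total counts these lower bounds were 24.9-fold, 6.26-fold and 6.35-fold. With total counts, 6 of 12 were called higher, beside 20.2% of all sequences, and the values of miR-29a-3p 19 nt, miR-29b-3p 20 nt and 21 nt, and miR-29c-3p 19 nt turned negative. In a fit of miRNA sequences alone, 6 were called higher and 2 lower, beside 310 higher and 91 lower of 865 sequences.

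As a share of summed mature miRNA counts, in which abundant miRNAs weigh most, the family was scarcest in the oxidized methyltransferase libraries. Its share of all mature miRNA counts was 0.591% and 0.650% in CTRL non-oxidized libraries (mean 0.621% ± 0.0417 SD, n = 2), 0.349% and 0.465% in CTRL oxidized libraries (0.407% ± 0.0821), 0.406% and 0.265% in methyltransferase non-oxidized libraries (0.336% ± 0.0992) and 0.0642% and 0.0877% in methyltransferase oxidized libraries (0.0760% ± 0.0166). In order of level, CTRL non-oxidized libraries were above all others, CTRL oxidized and methyltransferase non-oxidized libraries overlapped, and methyltransferase oxidized libraries were below all others. The 95% Wilson intervals, which cover counting error only, were 0.263% to 0.462% and 0.350% to 0.617% for the 2 CTRL oxidized libraries, with 48 and 47 counts, and 0.0609% to 0.0678% and 0.0833% to 0.0923% for the 2 methyltransferase oxidized libraries.

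The share was 4.37-fold lower after oxidation of methyltransferase RNA and 5.36-fold lower in methyltransferase than in CTRL oxidized RNA. It was 1.54-fold lower after oxidation of control RNA and 1.89-fold lower with the methyltransferase in non-oxidized RNA. Each of the 4 differences separated the libraries without overlap, but 2 libraries against 2 cannot give an exact two-sided permutation p below 0.333, which each gave (0.333 also after adjustment over the 16 shares and ratios tested). Measured against all listed counts instead of mature miRNA counts, methyltransferase oxidized libraries held more miR-29 than CTRL oxidized libraries (0.0424% and 0.0589% against 0.0109% and 0.0159%), a log2 difference of 1.92.

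**Figure D4:**
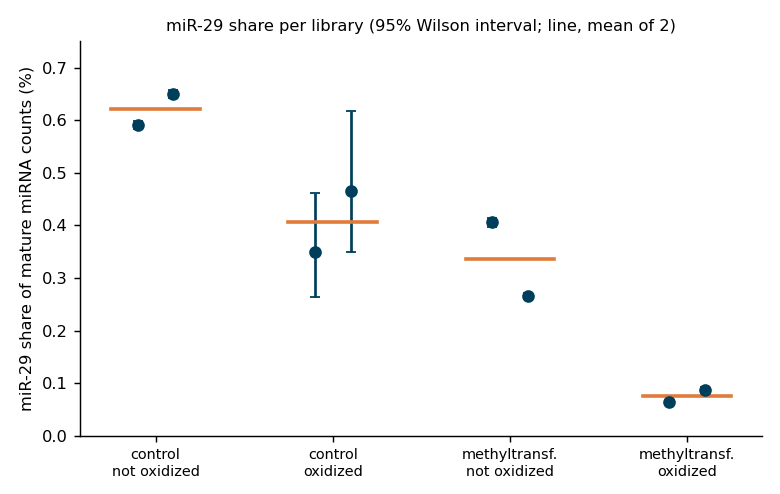
Share of mature miRNA counts that belonged to the 12 miR-29 sequences (y axis, %), for each library by group; points are libraries with 95% Wilson intervals and lines are group means. The 2 methyltransferase oxidized libraries, at 0.0642% and 0.0877%, lie below the 6 other libraries.

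The length make-up of the family separated CTRL oxidized RNA from the other 3 groups. Sequences short of the RefSeq 3′ end by 2 or 3 bases made up 12.8% and 12.5% of miR-29 counts in CTRL non-oxidized libraries, 11.6% and 12.4% in methyltransferase non-oxidized libraries and 8.14% and 9.30% in methyltransferase oxidized libraries, but 68.8% and 85.1% in CTRL oxidized libraries (33 of 48 and 40 of 47 counts). Full-length miR-29a-3p of 22 nt was 21.9% and 22.1% of miR-29a-3p counts in CTRL non-oxidized RNA and 32.4% and 28.9% in methyltransferase non-oxidized RNA. It was 37.3% and 43.3% in methyltransferase oxidized RNA, and 2.70% and 4.55% in CTRL oxidized RNA. These groups did not overlap, but the CTRL oxidized shares are 1 of 37 and 1 of 22 counts, with a wide counting error. For miR-29b-3p, the full-length share stayed between 82.5% and 85.9% in the 3 groups other than CTRL oxidized.

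Other miRNAs showed the same separation. Among mature miRNA sequences outside the family, those of 20 nt or less (211 of 640 sequences) held 64.7% and 65.0% of counts in CTRL oxidized libraries, and 3.47% and 3.49%, 3.58% and 3.48%, and 1.54% and 1.66% in the CTRL non-oxidized, methyltransferase non-oxidized and methyltransferase oxidized libraries. The corresponding shares of miR-29 sequences (5 of 12 were of 20 nt or less) were 62.5% and 85.1%, 11.9% and 11.4%, 10.4% and 11.0%, and 7.84% and 8.74%. In both sets the oxidized methyltransferase libraries had the lowest share of short sequences.

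**Figure D5:**
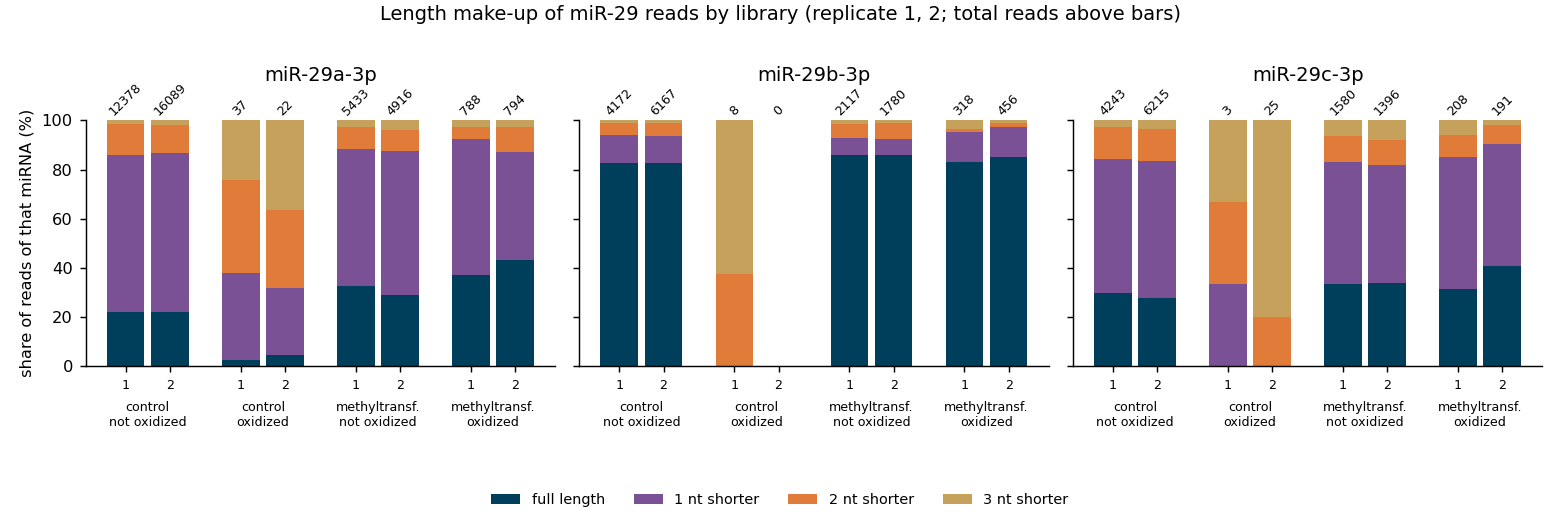
Share of the reads of each miR-29 miRNA (y axis, %) by how many bases the sequence lacks at the 3′ end, for replicates 1 and 2 of each group; numbers above the bars are total counts. In CTRL oxidized libraries, with 0 to 37 counts per miRNA, sequences short by 2 or 3 bases make up 62.2% or more, against 18.1% or less elsewhere.

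The ratios of the main miR-29b-3p and miR-29c-3p sequences to the main miR-29a-3p sequence moved by at most 1.46-fold in the contrasts that could be computed. The ratio of the main miR-29c-3p to the main miR-29a-3p sequence was 0.294 and 0.332 in CTRL non-oxidized libraries, 0.259 and 0.232 in methyltransferase non-oxidized libraries and 0.259 and 0.274 in methyltransferase oxidized libraries. That of miR-29b-3p to miR-29a-3p was 0.437 and 0.490, 0.600 and 0.531, and 0.610 and 1.12 in the same groups. The latter was 1.46-fold higher after oxidation of methyltransferase RNA, with a pooled SD of 0.45 on the log2 scale for a difference of 0.55, so replicate 2 of the oxidized libraries sets most of it. Each of these contrasts gave the smallest exact permutation p possible, 0.333. The ratio of miR-29c-3p to miR-29b-3p, not tested, was 0.673 and 0.678 in CTRL non-oxidized, 0.431 and 0.437 in methyltransferase non-oxidized and 0.424 and 0.245 in methyltransferase oxidized libraries, so it was 1.56-fold lower with the methyltransferase in non-oxidized RNA. In CTRL oxidized RNA the main miR-29b-3p sequence was at 0 in both libraries and its ratios have no meaning.

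Reads close to the family but without a mature hit had the same order of groups. A set of 7 listed sequences matched only a miR-29 hairpin, and each was a stretch of the mature miRNA with 1 extra base at the 5′ end, which moves the seed by 1 base. They summed to 874 and 1164 counts in CTRL non-oxidized, 0 and 0 in CTRL oxidized, 329 and 402 in methyltransferase non-oxidized and 65 and 86 in methyltransferase oxidized libraries. All 7 were called higher with the methyltransferase in oxidized RNA, 7 of 7 lower on oxidation of control RNA and 4 of 7 lower on oxidation of methyltransferase RNA, beside 42.3%, 46.4% and 11.2% of all tested sequences. They too were listed for their counts in methyltransferase oxidized RNA.

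A further 4 sequences without any annotation differed from a member by 1 substitution, as miR-29c-3p differs from miR-29a-3p. They too were listed for their counts in methyltransferase oxidized RNA. The sequence with T9C relative to miR-29a-3p 21 nt (member's base first, position from the 5′ end) had 38 and 44 counts in CTRL non-oxidized RNA, 0.448% of the member. Those with A8G relative to miR-29a-3p 22 nt and miR-29b-3p 23 nt were at 0.415% and 0.386% of their members. The sequence with A22T relative to miR-29a-3p 22 nt, which is also the 21-nt main sequence with an added T, had 76 and 86 counts (2.58%). By comparison miR-29c-3p, at C10T from miR-29a-3p in read letters, had 29.4% and 33.2% of the miR-29a-3p counts at 21 nt. A miR-29a-3p read with a C10T error would be listed as miR-29c-3p, so the rate of that error cannot be measured here.

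The sequences most alike the main miR-29a-3p sequence over the 8 libraries were sought by root mean square difference in log2(TMM CPM + 1), each profile centred on its mean. The main miR-29c-3p sequence was closest (0.145), with none of 272 other abundant mature miRNA sequences closer. Outside the family the 5 closest were miR-340-5p 21 nt (0.250), miR-137-3p 21 nt (0.414), miR-26a-5p 20 nt (0.419), miR-125b-5p 22 nt (0.423) and miR-99a-5p 21 nt (0.432), beside a median of 1.29 over the 272. miR-340-5p 21 nt had 2152 and 2752 counts in CTRL non-oxidized, 0 and 0 in CTRL oxidized, 748 and 769 in methyltransferase non-oxidized and 69 and 74 in methyltransferase oxidized libraries. The main miR-29b-3p sequence was less alike (0.730, 36 of the 272 closer). miR-29a-3p 19 nt was farther still (2.00, with 221 closer).

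Other miRNAs known from beta cells gave the setting for these values. Of a list of 22, main sequences of 20 were listed and tested. The list includes miR-124-3p, which is also counted above as a marker of neurons. With the methyltransferase, all 20 were called higher in oxidized RNA (median log2 fold change 7.82), 20 of 20 lower on oxidation of control RNA (-11.68), and 15 of 20 lower and 0 higher on oxidation of methyltransferase RNA (-2.76). The shares over all sequences were 42.3%, 46.4% and 11.2%, and the counts over the 595 mature miRNA sequences outside the miR-29 family were 509, 551 and 240. These miRNAs too were listed for their counts in methyltransferase oxidized RNA, so their calls as higher there are a description. In non-oxidized RNA edgeR called 0 of 20 between plasmids (median -1.25). On oxidation of methyltransferase RNA, miR-375-3p, the most abundant islet miRNA, had a value of -1.39 ± 0.45 (SE, adjusted p = 0.0676 in edgeR), and miR-7a-5p, a regulator of insulin secretion, fell by 1.74 ± 0.40 (adjusted p = 0.0133). miR-182-5p, of the miR-183 cluster, fell by 5.88 ± 0.44 and miR-26a-5p by 4.86 ± 0.48, both more than any main miR-29 sequence, and miR-200c-3p, of the miR-200 family, had -0.10 ± 0.69.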

How the data were processed

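Small RNA libraries of MIN6B1 cells (4 groups of 2) were taken from 1 deposited table, in which the authors give, per the file headers, read counts per distinct read sequence. The same table holds a normalized signal (counts divided by a library factor) and regularized log2 values by the authors, which were not used, and a signed fold change, a score, and an adjusted p-value for 2 comparisons, all deposited by the authors. Aligner, genome build, trimming, use of molecular identifiers and counting tool are not given in the sources used here. Lines repeating a sequence under another annotation (12608 lines) were merged to 11568 sequences. The members and lists were chosen with earlier results of these data known.

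Counts were tested with edgeR 4.0.16 (R 4.3.3; quasi-likelihood, TMM, filterByExpr, 9851 sequences, all 12 members passing), with Benjamini-Hochberg adjustment over all of them and calls at 0.05. The 8 libraries entered 1 fit of 4 groups; SE is the fold change over the root of the F statistic. On data simulated with known 8-fold changes for methyltransferase against CTRL in oxidized RNA, 140 of 176 changed and tested sequences were called correctly (79.5%), and 8 unchanged ones were called. That simulation changed only 200 of 9851 sequences, in random directions, from their means over all 8 libraries and with 1 fixed dispersion. It did not imitate the low miRNA counts of CTRL oxidized libraries, so it cannot test the scaling or the calls that rest on those counts. Shares and ratios were tested by exact permutation over libraries (SciPy 1.17.1). Values were printed for each main sequence (the highest in CTRL non-oxidized RNA), for members with a mean of at least 100 counts, and, chosen after their values were seen, for the shorter members that single libraries decide. Folds of sequences at 0 in both CTRL oxidized libraries use a floor of 3 counts per library. Intervals and floors cover counting error only. Alternatives were other scalings (total listed counts, upper quartiles, or size factors of DESeq2 1.42.0), no filter, the DESeq2 Wald test, only the libraries compared, miRNA sequences alone, at least 10 counts in each group compared, counts summed by mature miRNA, a replicate block and leaving out each library. Loci and mature sequences are from RefSeq (GRCm38.p6), overlaps from GENCODE M21.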

Additional observations from a re-analysis of the deposited data

Results flagged for a closer look

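The oxidation effect differed under the 2 plasmids for 10 of the 12 miR-29 sequences, by the edgeR test of the interaction itself, beside 39.6% of all 9851 tested sequences and 510 of the 595 other mature miRNA sequences. Since the listing requires counts in methyltransferase oxidized RNA, a group that raises the interaction, these counts are a description. With libraries scaled by total counts it differed for 6 of the 12, beside 20.2% of all sequences called higher. In a fit of miRNA sequences alone the interaction was called higher for 6 and lower for 2, beside 310 and 91 of 865 sequences. The log2 difference between the oxidation effects (methyltransferase minus CTRL) was 1.89, 4.62, 7.11 and 9.24 for miR-29a-3p at 19, 20, 21 and 22 nt. It was 3.17, 10.67 and 12.65 for miR-29b-3p at 21, 22 and 23 nt. For miR-29c-3p it was 4.57, 9.45 and 10.68 at 20, 21 and 22 nt. The values of 22-nt and longer miR-29b-3p and of miR-29c-3p 22 nt rest on 0 counts in CTRL oxidized RNA and depend on the prior count.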

How the results depend on the processing

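Calls at an adjusted p under 0.05 are counts of the 12 members (edgeR unless named). Leaving out 1 library gave 8 to 9 calls for methyltransferase against CTRL in oxidized RNA, 0 in non-oxidized RNA, 12 for oxidation of control RNA, 9 to 12 for oxidation of methyltransferase RNA and 8 to 10 for the interaction. Summing by mature miRNA left 3 features, and 3 of 3 were called in each of these except non-oxidized RNA. Requiring 10 counts in each group compared left 4 members, with 2, 4 and 2 called for oxidized RNA, oxidation of control RNA and the interaction. The DESeq2 Wald test called 6 in non-oxidized RNA, and total counts gave 6 for the interaction. With a replicate block, the interaction had 11 calls and the 4 other counts did not move. Same-numbered libraries deviated together in only some group pairs (r from -0.01 to 0.56 over 2481 sequences), so the numbers were not taken as pairs.

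Against all listed counts, the share's log2 difference was 1.92 for methyltransferase against CTRL in oxidized RNA and -4.94 for oxidation of control RNA; with precursor-only counts added to the denominator the latter was -0.37. Over all sequences, the miR-29b-3p to miR-29a-3p ratio differed by 0.064 between plasmids in non-oxidized RNA, and that of miR-29c-3p to miR-29a-3p by -0.19 on oxidation of methyltransferase RNA, against 0.12 for main sequences. Leaving out 1 library, the 4 differences in share ranged from -2.65 to -2.20 (oxidized RNA), -1.22 to -0.61 (non-oxidized RNA), -0.83 to -0.42 (oxidation, control) and -2.43 to -1.82 (oxidation, methyltransferase).

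Among single sequences, directions turned only for those short by 2 or 3 bases. For methyltransferase against CTRL in oxidized RNA, total counts gave -1.58 and -0.29 (miR-29a-3p 19 and 20 nt), -1.17 and -0.81 (miR-29b-3p 20 and 21 nt) and -0.54 (miR-29c-3p 20 nt), and miRNA sequences alone gave -2.74, -1.501, -2.41, -2.05 and -1.66 in that order. miR-29c-3p 19 nt gave 0.019 with 10 counts required, -1.54 without CTRL oxidized replicate 1, 3.07 without CTRL oxidized replicate 2 and 0.48 without methyltransferase oxidized replicate 2. In non-oxidized RNA, miR-29a-3p 19 nt gave 0.073 (total counts) and 0.25 (miRNA alone), and miR-29c-3p 19 nt 0.033 (miRNA alone). For oxidation of control RNA, miR-29c-3p 19 nt gave 0.28 (total counts), and miRNA alone gave 1.15, 1.18 and 1.99 for the shortest sequences of miR-29a-3p, miR-29b-3p and miR-29c-3p. For the interaction, total counts gave -1.65 (miR-29a-3p 19 nt), -0.47 and -0.28 (miR-29b-3p 20 and 21 nt) and -3.41 (miR-29c-3p 19 nt); miRNA alone gave -2.99 and -0.28 (miR-29a-3p 19 and 20 nt), -1.84 and -1.68 (miR-29b-3p), and -4.60 and -0.24 (miR-29c-3p 19 and 20 nt). miR-29c-3p 19 nt also gave 3.78 without CTRL oxidized replicate 2, -0.86 (upper quartile), -0.26 without CTRL non-oxidized replicate 2, -0.84 without CTRL oxidized replicate 1 and -0.57 without methyltransferase oxidized replicate 1. The cause was not tested.

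Over the whole table, calls moved from 4552 to 7537 (total counts), 2252 (only the libraries compared), 437 of 865 (miRNA alone) and 185 of 5276 (10 counts required) for oxidized RNA; from 0 to 123 (DESeq2 Wald) in non-oxidized RNA; from 6380 to 502 (miRNA alone) and 784 (10 counts) for oxidation of control RNA; from 1274 to 351 (miRNA alone), and to 760 and 801 without methyltransferase oxidized replicate 1 or 2; and from 4199 to 401 and 176 for the interaction, where fewer sequences were tested. For the interaction, a fit of only the libraries compared is the reported one, and ratios with 0 counts in CTRL oxidized RNA have no value. The CTRL oxidized libraries, with 48 and 47 miR-29 counts, limit the precision of the comparisons that use them.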
